A study of Mus musculus with 3 samples.

Results

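T cell receptor variable segments were followed in RNA-seq read counts of CD8+ T cells from mouse spleen. Rows of the count table whose symbol starts with Trav, Trbv, Trgv or Trdv were taken, which gave 136 of 25638 genes: 108 Trav (alpha), 22 Trbv (beta), 1 Trgv (gamma) and 5 Trdv (delta). The series covers 3 populations, effector memory, central memory and naive T cells, all labelled WT (wild type), untreated and CD8+. Each group has 1 library, so no difference has a replicate check, and intervals below are exact 95% intervals that cover counting error only. Neither strain, age, number of animals nor the way the cells were separated is given in the sources used here. Totals were 33087462 counts in effector memory, 35846315 in central memory and 26876909 in naive.

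Each T cell builds its receptor genes by joining 1 variable segment to a joining segment, and for beta and delta also to a diversity segment. Most CD8+ cells carry an alpha chain paired with a beta chain, and a separate lineage carries gamma and delta chains. The variable segment encodes part of the surface that meets antigen, and the join adds to it. The spread of counts over segments describes these segments alone, not the joins or the pairing of chains, so different receptors were not counted. The delta locus lies inside the alpha locus on chromosome 14, and segments whose symbol carries a -dv suffix can join to either. Much of the mouse alpha locus is repeated, and copies of a segment are told apart by the letters d and n in the symbol. Naive cells have not met their antigen, and memory cells descend from cells that have.

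Markers listed for CD8 alpha beta T cells were looked at first. All 8 were at 5 CPM or more in each library (CPM, counts scaled by effective library size). They summed to 2559 CPM in effector memory, 3742 in central memory and 4807 in naive. Cd3e, Cd3d, Cd3g and Cd247 on this list belong to the receptor complex of T cells in general. Cd8a and Cd8b1 bear most directly on the label CD8+. Cd8a stood at 408 CPM in effector memory, 1063 in central memory and 1868 in naive, and Cd8b1 at 276, 540 and 1055. By the rule for calls given below, 3 of the 8, Cd8a and Cd8b1 among them, fell in effector memory against naive, beside 15.6% lower among all genes. Against central memory 2 of the 8 fell there, beside 12.8% lower, and 0 were called in central memory against naive. Cd4 had 9 counts in effector memory, 9 in central memory and 59 in naive. The CD4 list was mixed. Zbtb7b, the factor that directs thymocytes to the CD4 fate, had 2994, 1339 and 37 counts in the same libraries. Foxp3 went the other way with 5, 61 and 110 counts, and Cd40lg had 9, 13 and 9. The 6 B cell markers in the table summed to 2.81 CPM in effector memory, 6.17 in central memory and 31.2 in naive. Fewer cells of a type and less RNA per cell cannot be told apart in such bulk libraries. All 136 segments are annotated as variable segment genes in GENCODE M21 (build GRCm38).

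The sequences on which the memory libraries turn are those of Trbv12-1 and of the Trav14-1 copies. Trbv12-1 (chr6:41113550-41114067, plus strand) and its relative Trbv12-2 (chr6:41118851-41119364, plus strand) share 88.2% of their 372 coding bases; they are shown because 1 of them made up nearly all beta counts in memory while the other did not. They differ at 44 coding bases, and capitals mark the 29 of these that fall in the last 240.
Trbv12-1: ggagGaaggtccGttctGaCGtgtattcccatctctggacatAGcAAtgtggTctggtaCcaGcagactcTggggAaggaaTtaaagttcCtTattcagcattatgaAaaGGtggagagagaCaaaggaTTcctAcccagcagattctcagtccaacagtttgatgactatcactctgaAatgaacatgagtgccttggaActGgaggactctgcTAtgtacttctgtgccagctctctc
Trbv12-2: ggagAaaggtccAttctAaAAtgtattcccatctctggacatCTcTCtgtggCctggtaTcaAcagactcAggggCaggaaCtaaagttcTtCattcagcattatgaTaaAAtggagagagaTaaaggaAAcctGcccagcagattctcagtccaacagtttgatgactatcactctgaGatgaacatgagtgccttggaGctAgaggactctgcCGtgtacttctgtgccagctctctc

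Trav14n-1 (chr14:53166626-53167178), Trav14d-1 (chr14:52855614-52856166) and Trav14-1 (chr14:53554022-53554558), all on the plus strand, are the n, d and letterless copies of 1 alpha segment. They are shown because 2 of the 3 have the same letters, so reads from them cannot be told apart. Trav14n-1 and Trav14d-1 are identical over their 415 transcript bases, and each differs from Trav14-1 at 16 of 364 coding bases. The last 150 coding bases follow, with capitals at the 5 positions that differ between Trav14-1 and the other copies.
Trav14n-1: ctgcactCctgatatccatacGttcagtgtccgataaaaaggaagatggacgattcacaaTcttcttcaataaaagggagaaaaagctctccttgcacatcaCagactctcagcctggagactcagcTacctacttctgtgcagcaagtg
Trav14d-1: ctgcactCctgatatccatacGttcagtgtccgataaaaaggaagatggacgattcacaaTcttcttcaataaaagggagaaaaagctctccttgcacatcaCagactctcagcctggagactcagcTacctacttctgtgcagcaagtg
Trav14-1: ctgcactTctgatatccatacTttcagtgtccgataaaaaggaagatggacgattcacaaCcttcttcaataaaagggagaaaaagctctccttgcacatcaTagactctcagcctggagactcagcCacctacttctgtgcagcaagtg

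In the naive library every beta segment was detected, and no segment dominated the locus. Counts show transcripts of a segment, here and for the other loci, and whether they came from joined receptor genes was not tested. All 22 Trbv segments had counts, between 18 and 1396 each, from 15526 Trbv counts in all. Trbv13-2 held the largest share at 8.99% (interval 8.55% to 9.45%), followed by Trbv16 at 8.29% (7.86% to 8.73%), Trbv12-2 at 7.30% (6.90% to 7.72%) and Trbv12-1 at 7.13%. Trbv3 had 7.04% (6.64% to 7.45%) and Trbv29 had 6.55% (6.17% to 6.95%). The effective number of segments, the exponential of the Shannon entropy of the shares, was 18.3 of 22.

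Of 21 steps from a Trbv segment to the next lower one in this naive order, 13 had a ratio whose counting interval included 1. The order was taken from these same counts, so small steps follow from it and do not measure evenness. The steepest step lay between Trbv31, with 283 counts, and Trbv30, with 60 counts (4.72-fold). Below it were Trbv30 at 0.386%, Trbv23 at 0.367% and Trbv21 at 0.116% of Trbv counts. Trbv31 (chr6:41557691-41558452), the segment that lies inverted at the far end of the beta locus, is the only Trbv member annotated on the minus strand and had 1.82% (1.62% to 2.05%). By family, the 3 Trbv13 segments, known as Vβ8, held 20.3% and the 2 Trbv12 segments, known as Vβ5, held 14.4%.

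Length moved some of these places. Per kilobase of exon, Trbv13-2, Trbv16 and Trbv12-2 kept the first 3 ranks at 10.2%, 8.05% and 7.33%. Trbv19 and Trbv2, with long annotated exons, stood at 2.69% and 2.61% per kilobase, against 3.94% and 3.78% of counts. Trbv4 and Trbv5 share 295 and 292 exon bases with a lincRNA gene on the same strand in GENCODE M21, so their naive counts, 810 and 661, are uncertain. That lincRNA has no row in the count table, and whether the authors' annotation held it is unknown.

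**Figure D1:**
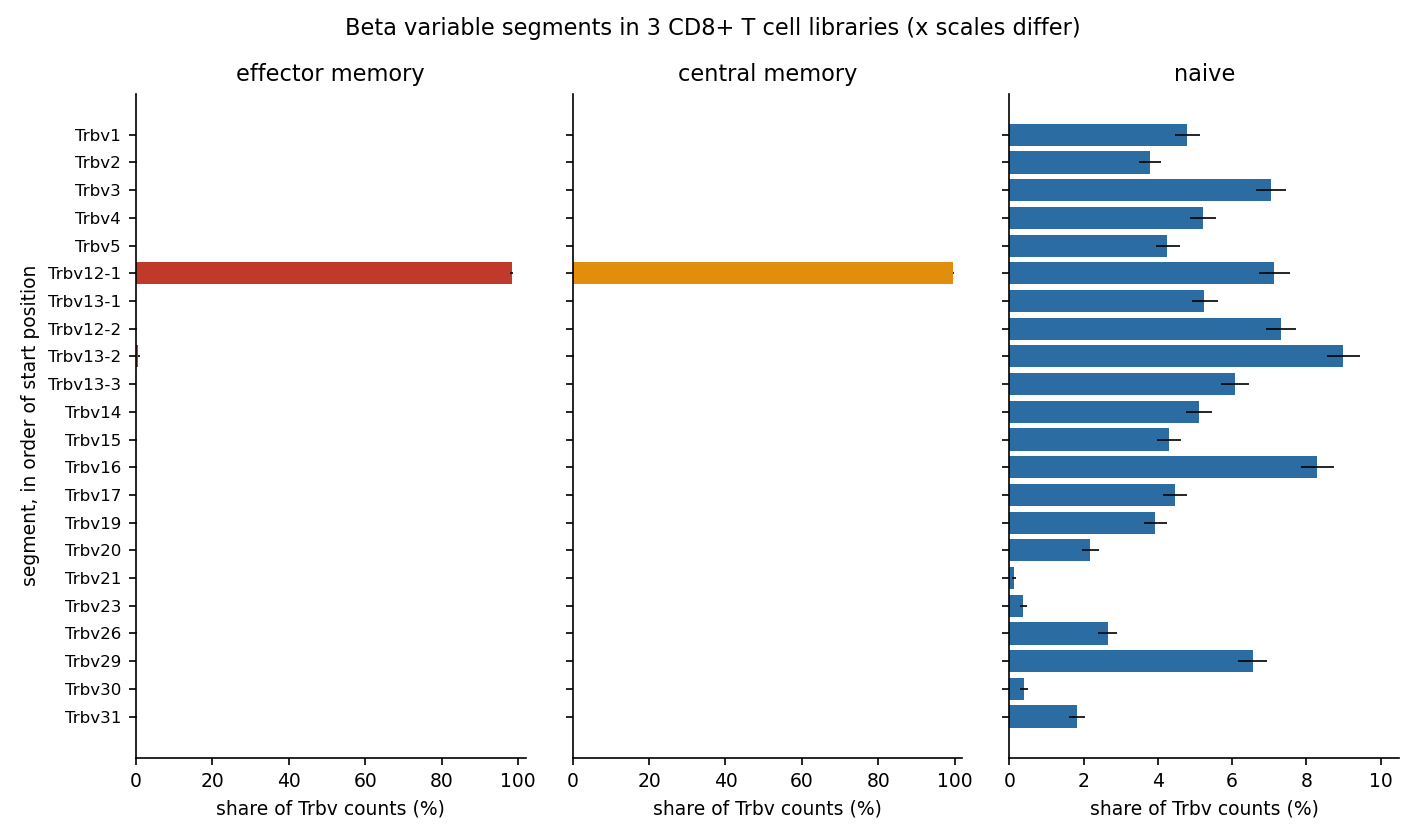
Share of Trbv counts (%) for the 22 segments in order of start position, with exact 95% intervals, in the effector memory, central memory and naive libraries; the naive panel has its own scale. Trbv12-1 fills 98.4% and 99.6% of the memory panels, while no naive bar passes 8.99%.

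Alpha counts in the naive library were spread over many segments. Of 108 Trav segments, 84 had counts, 6502 in all, and the effective number was 54.3. The alpha locus has more rows than the beta locus, and counted by family the effective number was 13.4 for Trav and 13.3 for Trbv. Trav16n led with 353 counts or 5.43% (interval 4.89% to 6.01%), followed by Trav14-1 with 307 (4.72%), Trav13-1 with 239 (3.68%), Trav12-2 with 232 (3.57%), Trav5-4 with 226 (3.48%) and Trav16 with 224 (3.45%). The 5 leading segments together held 20.9%. Among the 22 highest Trav segments, 20 of 21 steps to the next had an interval that included 1. Here too the order came from the same counts, so this does not measure evenness.

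By family number, Trav14 and Trav7 each had 840 naive counts (12.9%), with 9 and 13 segments. The 3 Trav16 copies summed to 686 counts (10.6%), which put this segment first also when copies were summed. Trav11, the segment of the invariant receptor of natural killer T cells, had 2 counts in effector memory, 0 in central memory and 0 in naive, and its copy Trav11d had 0 in every library. Neither Trav11 nor Trav11d holds a 50-base window of its own, so these zeros do not measure their use. Trav1, the segment of mucosal-associated invariant T cells, had 0 counts in effector memory, 0 in central memory and 51 in naive (0.784%, interval 0.585% to 1.03%).

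Most Trav segments with no sequence window of their own had few or no counts. For each segment, every window of 50 bases of its longest transcript was looked for in all other GENCODE transcripts, on both strands. The median Trav segment had 30.0% of windows to itself, and 38 of 108 had none; 20 of 22 Trbv segments had at least 98%. Of the 14 Trav segments with 0 counts in all 3 libraries, 13 had no window of their own and the other, Trav7d-2, had under 1%. The 38 segments with no own window had a median of 0 naive counts and held 3.78% of naive Trav counts, while the other 70 had a median of 74.5 and held 96.2%. In memory the same 38 segments held 20.9% of Trav counts in effector memory and 36.7% in central memory, most of it on Trav14n-1 and Trav14d-1. How reads that map to several places were treated is unknown here.

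**Figure D2:**
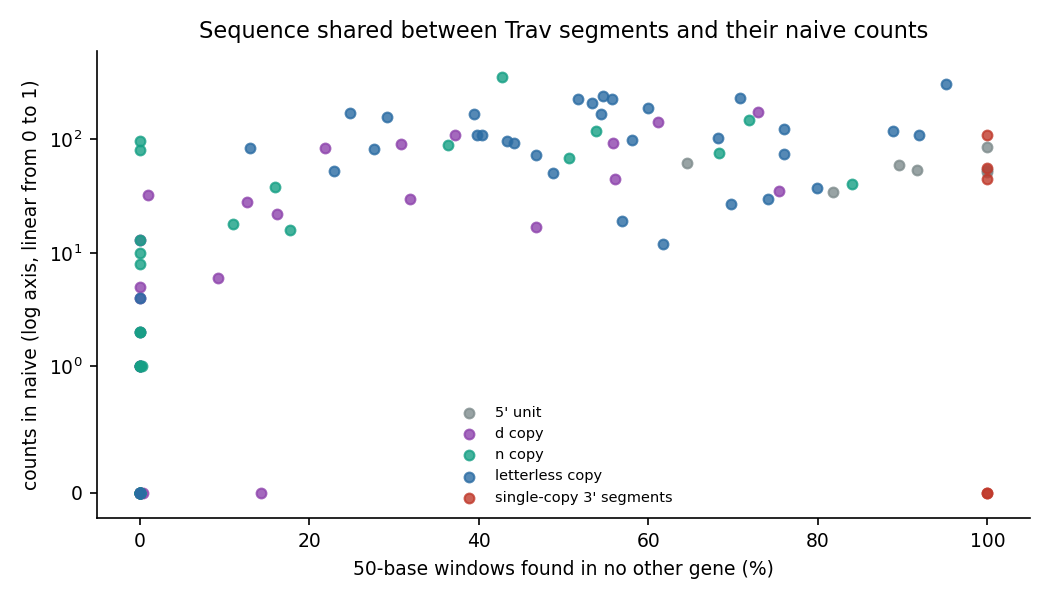
Counts in the naive library (log axis, linear from 0 to 1) against the share of 50-base windows that no other gene holds (%), for 108 Trav segments coloured by place in the locus. The 38 segments at 0% on the horizontal axis have a median of 0 naive counts.

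By place, 58.1% of naive Trav counts fell on the 34 letterless copies and 18.1% on the 28 n copies. A further 14.4% fell on the 34 d copies. The 7 segments at the 5′ end of the locus, before the first d copy, held 6.14%. The 5 single-copy segments at the 3′ end (Trav17, Trav18, Trav19, Trav21-dv12 and Trav23), nearest the delta and joining segments, held 3.23%.

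**Figure D3:**
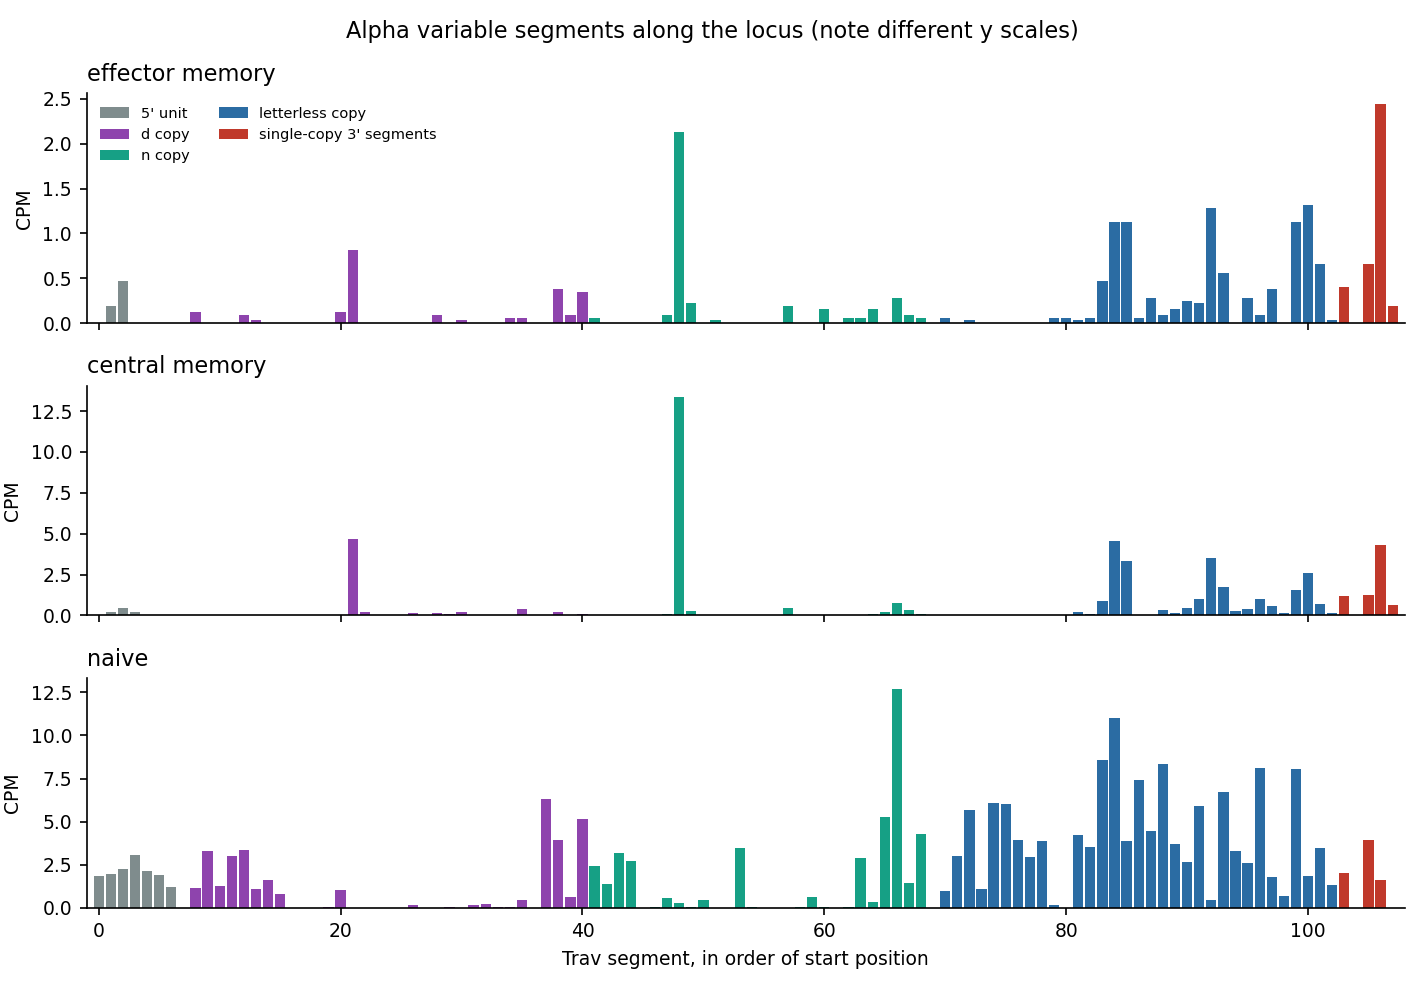
CPM of the 108 Trav segments in order of start position, coloured by place, in the effector memory, central memory and naive libraries, each panel with its own scale and without error bars. The tallest bar is Trav21-dv12 (2.44 CPM) in effector memory, Trav14n-1 (13.4 CPM) in central memory and Trav16n (12.7 CPM) in naive.

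In both memory libraries nearly all beta counts fell on Trbv12-1, and the Trav14-1 copies took a larger share of alpha counts than in naive. Calls needed a 2-fold ratio, a counting interval that left out 1, and 5 CPM or more in whichever library was higher; this sets a size and tests nothing. In central memory against naive, 39 of 136 members reached 5 CPM, of which 6 rose and 33 fell, beside 11.2% higher and 5.12% lower among all 9737 genes at that level. In effector memory against naive, 37 reached it, of which 4 rose and 33 fell, beside 22.3% higher and 15.6% lower among 10087 genes. Members near 0 in 1 library reach 5 CPM only through the other, so those that reach it are bound to differ.

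Trbv12-1 stood at 157 CPM in effector memory, 666 in central memory and 39.8 in naive. It rose 3.94-fold in effector memory (interval 3.69 to 4.20) and 16.7-fold in central memory (15.8 to 17.8). The effective number of Trbv segments was 1.12 in effector memory and 1.03 in central memory, against 18.3 in naive. Summed Trbv levels were 159 CPM in effector memory, 668 in central memory and 558 in naive. The sum was thus 3.51-fold lower in effector memory than in naive (interval 3.40 to 3.62), and within 1.20-fold of naive in central memory (1.17 to 1.22). Cd3e, a signalling chain that every T cell receptor needs, stood at 335, 418 and 395 CPM in the same libraries, and none of Cd3e, Cd3d, Cd3g and Cd247 was called in any comparison.

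The Trav14-1 copies together made up 20.3% of Trav counts in effector memory (130 of 640, interval 17.3% to 23.6%), 41.2% in central memory (809 of 1964, 39.0% to 43.4%) and 4.84% in naive (315 of 6502, 4.34% to 5.39%). Within this trio the identical pair had more counts in memory than in naive, and the third copy had fewer. Trav14n-1 and Trav14d-1 together had 94 counts in effector memory (2.94 CPM), 646 in central memory (18.0 CPM) and 8 in naive (0.288 CPM). The pair's level was 10.2-fold that of naive in effector memory (interval 4.98 to 24.4), where it stayed under 5 CPM, and it rose 62.7-fold in central memory (31.6 to 146). The table splits the pair into 68, 479 and 8 counts for Trav14n-1 and 26, 167 and 0 for Trav14d-1 in effector memory, central memory and naive, a split that identical sequence cannot measure, so the call of Trav14n-1 stands for the pair. Trav14-1 had 36, 163 and 307 counts in the same libraries and fell 9.80-fold in effector memory (6.93 to 14.3) and 2.42-fold in central memory (2.0 to 2.95).

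Summed Trav levels were low in memory. They stood at 20.01 CPM in effector memory, 54.8 in central memory and 234 in naive, 11.7-fold lower in effector memory than in naive (interval 10.8 to 12.7) and 4.26-fold lower in central memory (4.05 to 4.48). Per kilobase, Trav counts were 12.6% of Trbv counts in effector memory, 8.11% in central memory and 41.4% in naive. The pair of identical copies, Trav14n-1 and Trav14d-1, has no 50-base window of its own, so reads from it can go uncounted; how much this lowers the Trav sum was not tested. As background, antibodies to Vβ5 and Vα2 recognise products of the Trbv12 and Trav14 families, and the OT-I transgenic receptor carries that pair. The labels give WT, no joining segment has a row in the table, and whether any cell carried that receptor was not tested.

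Effector memory and central memory were also set against each other. Of 6 members at 5 CPM in either library, 0 rose and 3 fell in effector memory, beside 14.8% higher and 12.8% lower among all 9975 genes at that level. Those that fell were Trbv12-1, Trav14n-1 and Trdv2-2. Summed with its identical copy, Trav14n-1 fell 6.14-fold (interval 4.93 to 7.70).

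Gamma and delta levels were higher in both memory libraries than in naive, apart from Trdv2-1 in effector memory, whose ratio lay within counting error. Most alpha and beta segments that were called fell. The 3′ ends of their coding parts are shown because these 6 members carry this difference. Capitals mark TGT within the motif TANNNNTGT, searched on the coding strand only, which in variable segments holds the codon of the conserved cysteine where the third antigen-contact loop begins. It was found in the last 60 coding bases of 121 of 136 members (89.0%), including all 6 shown. Trgv2 lies at chr13:19336573-19337167 on the minus strand. On chromosome 14 the plus strand holds Trdv1 (chr14:53881612-53882217), Trdv2-1 (chr14:53946073-53946660), Trdv2-2 (chr14:53960944-53961602) and Trdv4 (chr14:54074905-54075515), and the minus strand Trdv5 (chr14:54148662-54149294).
Trgv2: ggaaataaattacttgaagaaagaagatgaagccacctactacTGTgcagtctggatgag
Trdv1: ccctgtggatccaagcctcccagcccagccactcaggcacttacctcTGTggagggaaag
Trdv2-1: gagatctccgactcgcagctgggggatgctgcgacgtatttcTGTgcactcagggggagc
Trdv2-2: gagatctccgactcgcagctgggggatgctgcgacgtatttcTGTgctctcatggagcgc
Trdv4: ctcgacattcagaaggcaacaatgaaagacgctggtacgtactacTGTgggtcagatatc
Trdv5: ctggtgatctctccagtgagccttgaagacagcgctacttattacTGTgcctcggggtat

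Trgv2, the only member at the gamma locus, had 729 counts in effector memory (22.8 CPM), 477 in central memory (13.3 CPM) and 12 in naive (0.431 CPM). Both memory libraries lay far above naive: it rose 52.9-fold in effector memory (interval 30.1 to 103) and 30.9-fold in central memory (17.5 to 60.2). Between the memory libraries it was 1.71-fold higher in effector memory (1.52 to 1.93), short of the 2-fold limit.

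The 5 delta segments summed to 20.5 CPM in effector memory, 40.8 in central memory and 3.74 in naive, 5.48-fold higher in effector memory than in naive (interval 4.45 to 6.81) and 10.9-fold higher in central memory (8.94 to 13.4). Trdv4 had 186 counts in effector memory, 216 in central memory and 3 in naive. It rose 53.9-fold in effector memory (18.2 to 264) and 55.9-fold in central memory (18.9 to 273), and the memory libraries lay within counting error of each other (ratio 0.965, 0.789 to 1.18). Trdv5 had 247, 408 and 18 counts in the same libraries and rose 11.9-fold (7.40 to 20.5) and 17.6-fold (11.0 to 30.0).

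Between the memory libraries Trdv5 was lower in effector memory (ratio 0.678, 0.577 to 0.796), short of the 2-fold limit.

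The other delta segments also had more counts in central memory. Trdv2-2 had 158 counts in effector memory, 621 in central memory and 51 in naive. It rose 9.46-fold in central memory (interval 7.10 to 12.8), and in effector memory, at 4.94 CPM, its ratio to naive was 2.70 (1.95 to 3.77). Trdv1 had 53, 147 and 25 counts, and Trdv2-1 had 11, 69 and 7, both under 5 CPM throughout. The ratio to naive was 1.84 (1.13 to 3.10) in effector memory and 4.57 (2.97 to 7.29) in central memory for Trdv1. It was 1.37 (0.484 to 4.16) in effector memory and 7.66 (3.52 to 19.8) in central memory for Trdv2-1. Within the delta locus, Trdv2-2 held 42.5% of counts in central memory and 49.0% in naive, and Trdv5 led in effector memory with 37.7% (34.0% to 41.5%).

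Some of these counts are uncertain. Trdv5 shares 207 exon bases with Trdc, the delta constant region, on the opposite strand. Trdv2-1 and Trdv2-2 share 192 and 105 exon bases with an antisense gene, Gm43647. Since strandedness is not given, reads of the partners cannot be told apart from theirs. Neither Trdc nor Gm43647 has a row in the count table. Trdv2-1 and Trdv2-2 also share 91.7% of their 348 coding bases.

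Markers of other cells moved beside these segments, and their part in the result was not tested. Of 11 gamma delta T cell markers, 7 were in the table and summed to 12.9 CPM in effector memory, 9.38 in central memory and 3.81 in naive. This list was mixed. Sox13, a factor of that lineage, had 67, 155 and 0 counts in these libraries, Cd163l1 had 185, 82 and 18, and Maf had 142, 49 and 27. Blk had 0, 4 and 20 counts and 5830411N06Rik had 14, 19 and 32. Of the 7, Cd163l1 alone reached 5 CPM, in effector memory, and rose there against central memory and against naive. Of the list 2 were at 0 in effector memory, 1 in central memory and 2 in naive. The constant regions Trdc, Tcrg-C1, Tcrg-C2 and Tcrg-C4 were not analysed here. The 5 NK cell markers summed to 83.9 CPM in effector memory, 135 in central memory and 38.4 in naive. Most of each sum was Eomes, which CD8+ T cells also express (79.9, 74.4 and 38.1 CPM). Ncr1 and Klra8, also on the NK cell list, had 0 counts in effector memory, 437 and 132 in central memory and 0 in naive. Klrb1c had 61 counts in effector memory, 1181 in central memory and 6 in naive, and Klre1 had 65, 419 and 2. Of 5 markers of natural killer and mucosal-associated invariant T cells, 3 were in the table and summed to 7.54 CPM in effector memory, 50.6 in central memory and 7.65 in naive. Klrb1c, which is on both lists, and Slamf1 (180, 631 and 207 counts) rose in central memory against naive, while Zbtb16, the factor of these cells, had 0 counts in all 3 libraries.

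**Figure D4:**
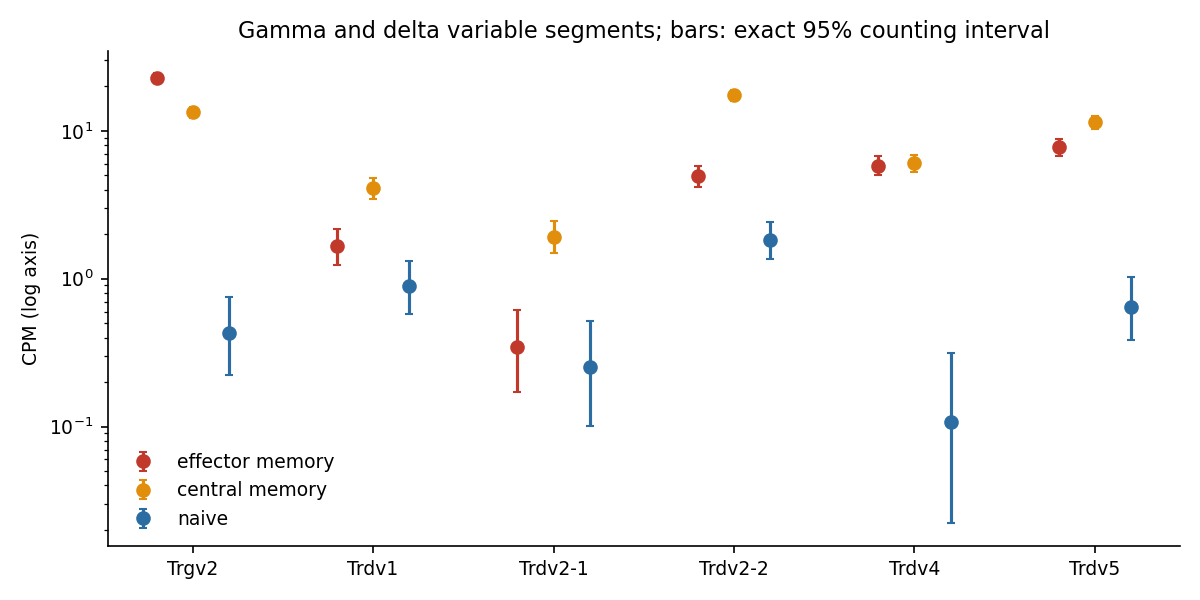
CPM on a log axis of the gamma segment Trgv2 and the 5 delta segments in the effector memory, central memory and naive libraries, with exact 95% counting intervals. Trgv2, Trdv4 and Trdv5 lie above naive in both memory libraries. In effector memory the intervals of Trdv1 (1.24 to 2.17 CPM) and Trdv2-1 (0.172 to 0.615 CPM) overlap those of naive. The naive intervals are 0.581 to 1.33 CPM for Trdv1 and 0.101 to 0.518 CPM for Trdv2-1.

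Outside Trbv12-1, few beta counts remained in memory. The other 21 Trbv segments had 83 counts in effector memory (2.60 CPM), 84 in central memory (2.34 CPM) and 14419 in naive (518 CPM), 199.7-fold and 221-fold lower than in naive. In effector memory 7 of 22 segments had no count, which allows up to 0.0589% of Trbv counts each, and in central memory 12 had none, which allows up to 0.0125% (3 counts). Trbv13-2 led what was left, with 36 counts in effector memory (43.4%, interval 32.5% to 54.7%) and 44 in central memory (52.4%, 41.2% to 63.4%), against 9.68% of the same segments in naive (9.20% to 10.2%). Its share of the remainder was thus larger in memory than in naive, at 1.13 and 1.23 CPM against 50.2 CPM in naive. The segment was picked as the largest of the remainder in these same counts, and the intervals do not cover that choice. Trbv12-2 followed with 8 and 13 counts in effector memory and central memory, and every other Trbv segment had 8 counts or fewer in each. Trbv3, Trbv14, Trbv23 and Trbv30 had 0 counts in both memory libraries.

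Remaining alpha counts kept more segments. In effector memory 55 of 108 Trav segments had counts and the effective number was 28.2, and in central memory 65 had counts and it was 19.8, against 84 and 54.3 in naive. Trav21-dv12 led in effector memory with 78 counts (12.2%, interval 9.75% to 15.0%). It had 155 in central memory and 45 in naive, and its ratio to naive was 1.51 (1.03 to 2.23) in effector memory and 2.68 (1.91 to 3.82) in central memory. Trav15-2-dv6-2 had 41, 125 and 12 counts in effector memory, central memory and naive, ratios to naive of 2.97 (1.53 to 6.21) and 8.09 (4.47 to 16.1). Both stayed under 5 CPM and were not called. Trav16, an alpha segment that led in naive together with its n copy, had 36, 56 and 224 counts in effector memory, central memory and naive.

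With the 3 Trav14-1 copies set aside, the 10 segments with a -dv suffix held 47.5% of Trav counts in effector memory (interval 43.0% to 51.9%), 47.9% in central memory (45.0% to 50.8%) and 9.55% in naive (8.83% to 10.3%). The other 95 segments summed to 8.38 CPM in effector memory and 16.8 CPM in central memory, against 201 CPM in naive, 24.0-fold and 11.97-fold lower. The -dv set stood at 7.57 CPM in effector memory, 15.4 in central memory and 21.2 in naive, 2.81-fold (2.41 to 3.27) and 1.38-fold (1.22 to 1.55) lower. Without Trav21-dv12 the other 9 held 38.0% of the remainder in effector memory, 39.8% in central memory and 8.89% in naive. Its members differed. Trav13-4-dv7 had 42, 92 and 52 counts in effector memory, central memory and naive, and Trav15-1-dv6-1 had 36, 119 and 108. Trav14d-3-dv8, by contrast, had 11, 4 and 143 counts in the same order of libraries, and Trav16d-dv11 had 12, 7 and 109. Trav4-4-dv10 (9, 15 and 72) and Trav6-7-dv9 (12, 20 and 50) also had fewer counts in memory, and the last 2, Trav15d-1-dv6d-1 and Trav15d-2-dv6d-2, had at most 8 counts in any library.

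The remainder was also placed differently along the locus. Without the Trav14-1 copies, the 5 single-copy segments at the 3′ end held 23.1% of Trav counts in effector memory (interval 19.5% to 27.05%), 23.3% in central memory (20.9% to 25.8%) and 3.39% in naive (2.96% to 3.88%). Trav21-dv12 carried most of this in memory, with 78 of 118 counts in effector memory, 155 of 269 in central memory and 45 of 210 in naive. Without it the other 4 held 9.26% in effector memory (6.70% to 12.4%), 11.4% in central memory (9.5% to 13.5%) and 2.69% in naive (2.30% to 3.12%). The summed level of all 5 was 3.69 CPM in effector memory, 7.51 in central memory and 7.55 in naive. The other 4 summed to 1.25, 3.18 and 5.93 CPM in these libraries. The 33 d copies stood at 1.44 CPM in effector memory, 1.84 in central memory and 33.7 in naive, and the 27 n copies at 1.47, 2.74 and 42.0 CPM. Among the 3′ segments, Trav23 had 6, 24 and 0 counts in effector memory, central memory and naive, while Trav19 had 21, 45 and 109.

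**Figure D5:**
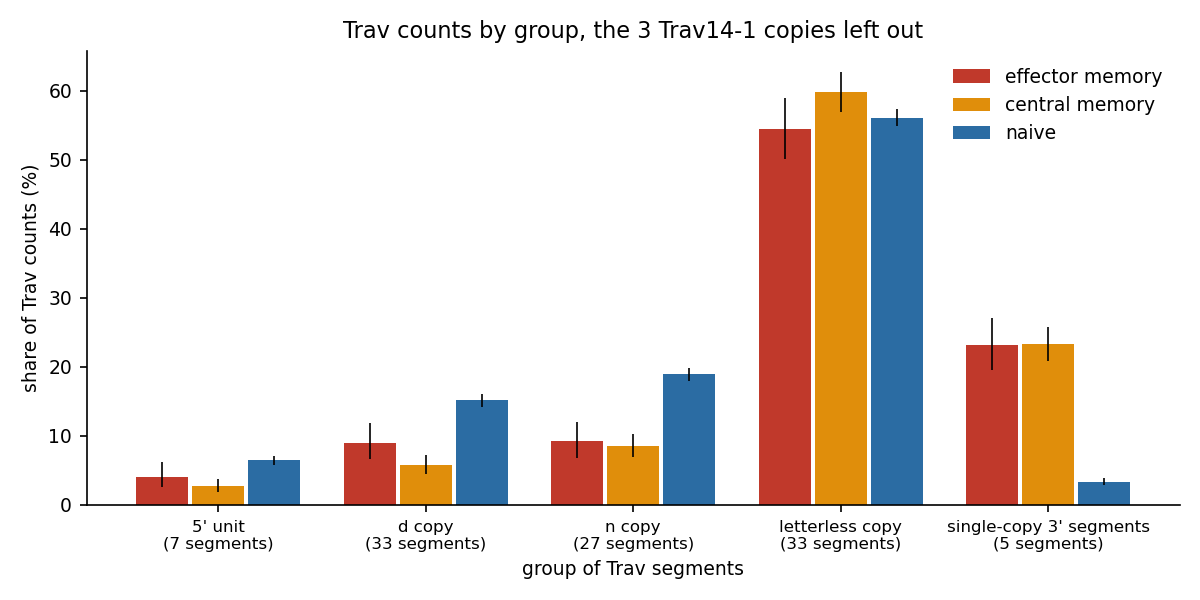
Share of Trav counts (%) by place in the locus, with exact 95% intervals, in the effector memory, central memory and naive libraries, the 3 Trav14-1 copies left out. The single-copy 3′ segments take 23.1% and 23.3% in the memory libraries and 3.39% in naive, and the d and n copies take less in memory than in naive. Without Trav21-dv12 the 3′ shares are 9.26%, 11.4% and 2.69%.

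Genes that build and carry the receptor were set beside the segments. Of 12 receptor assembly genes, Rag1 and Rag2, which cut the segments, and Ptcra, the stand-in alpha chain of immature thymocytes, had 0 counts in all 3 libraries. Of the 7 assembly genes at 5 CPM, none was called in central memory against naive, and in effector memory 0 rose and 2 fell: Lig4, the ligase that joins the ends (2.78 CPM in effector memory, 7.68 in central memory, 13.3 in naive), and Prkdc, the kinase of end joining (79.1, 192 and 177 CPM). These 2 of 7 stand beside 15.6% lower among all genes. Both also fell in effector memory against central memory, 2 of 7 beside 12.8% lower among all genes. Dntt, which adds bases at the joins, stood at 1.13 CPM in effector memory, 0.614 in central memory and 3.63 in naive. In the receptor complex list, 6 of 13 genes were in the table and 5 reached 5 CPM in naive. Of these 0 rose and 1 fell in each memory library: Trat1, an adaptor bound to the complex (0.469 CPM in effector memory, 0.195 in central memory, 12.5 in naive). This 1 of 5 stands beside 15.6% lower among all genes in effector memory and 5.12% lower in central memory, both against naive.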

How the data were processed

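The authors deposited raw read counts by gene symbol in columns TCM, TEM and TN, read as central memory, effector memory and naive from their abbreviations. Per the submitters' processing notes, the authors used CASAVA, HISAT2 2.0.5, featureCounts 1.5.0-p3 and build mm10; neither annotation, strandedness nor the multi-mapping setting is given in the sources used here. Per the labels' protocols, libraries were made from total RNA with an Illumina TruSeq kit. Reads shared by near-identical segments can be lost or moved between copies, which affects Trav most.

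Counts were scaled with TMM factors (edgeR 4.0.16, R 4.3.3): 0.967 for effector memory, 0.999 for central memory and 1.04 for naive. A count of 0 allows up to 0.0938, 0.0837 and 0.108 CPM in these libraries (3 counts). Shares have Clopper-Pearson intervals and ratios conditional binomial ones; these and the limits for 0 counts hold counting error alone, and with 1 library a group no p-value was computed. Ratios against 0 use 3 counts per library. Simulated counts with known ratios were used to test the call rule. Annotation and sequences come from GENCODE M21 (GRCm38, the assembly also called mm10), in which all 136 symbols matched. Named segments are the 6 highest in naive per locus, the leading and next 5 in memory with 10 counts, all gamma and delta segments, -dv segments with 10 counts, Trav11, Trav11d and Trav1; other segments named, such as Trbv31, Trav19 and Trav23, were chosen after their values were seen. Members and lists were chosen with earlier results of these data known, and the grouping of Trav by place, the 50-base windows, the sum of the identical Trav14 pair and the shares without Trav21-dv12 were added after seeing the data. Alternatives were other scalings (total counts, upper quartile, DESeq2 1.42.0 size factors), minimum levels, ratios, per-kilobase values and summed copies. Python 3.11.15 with pandas 2.3.3, SciPy 1.17.1 and NumPy 2.4.6 did the rest.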

Additional observations from a re-analysis of the deposited data

How the results depend on the processing

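Of 209 alternative values for 76 results, 173 counted as the same. Some of these could not differ, such as summed copies of a segment with no copies, or the smallest library thinned to its own total. The gamma sum and Trgv2 are also the same values entered under both names. The 173 is thus not a measure of robustness. For ratios, counting as the same needed the same direction and the same outcome on the 2-fold and interval limits, not a similar size. Shares had to stay within the main interval, and numbers of segments, effective numbers and calls within a set fold change. No result reversed, though 1 uncalled ratio near 1 changed sign. No paired analysis was possible because each group has 1 library. Per kilobase, the naive share of Trbv13-2 was 10.2%. With copies summed, Trav16n became 10.6% in naive and Trav14n-1 41.2% in central memory. Counted by family, the effective number of Trav segments was 9.65 in effector memory, 7.08 in central memory and 13.4 in naive; the inverse Simpson index in central memory was 10.6. With at least 3 counts, 9 Trbv segments were seen in effector memory. With at least 10 counts there were 2 Trbv in effector memory and 3 in central memory, 17 Trav in effector memory and 26 in central memory, and 3 Trdv in naive. Scaled by total counts, the Trdv sum in effector memory over central memory passed 2-fold (log2 ratio -1.04), and by DESeq2 size factors the Trdv4 log2 ratio in that comparison was 0.0242 in place of -0.05. At a minimum of 1 CPM, 11 members were higher and 75 lower in central memory against naive, 7 and 77 in effector memory against naive, and 13 were lower in effector memory against central memory. At 20 CPM these became 1 and 15, 2 and 15, and 1. With no minimum they were 15 and 84, 10 and 88, and 3 higher and 21 lower. Shares among all genes were computed only at the 5 CPM limit, so the counts at other limits have no background to be read against. Without Trav21-dv12, a choice made after seeing the data, the single-copy 3′ Trav share was 9.26% in effector memory, 11.4% in central memory and 2.69% in naive, and the -dv share 38.0% in effector memory and 39.8% in central memory. Pseudogene rows could not matter, since the table's members hold none. Counts were few for the 21 Trbv segments outside Trbv12-1 (83 in effector memory, 84 in central memory) and for delta segments in naive (104).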

Other observations

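The gamma locus also has 6 rows named Tcrg-V, which the rule by symbol leaves out. Together they had 116 counts in effector memory (3.63 CPM), 179 in central memory (4.997 CPM) and 23 in naive (0.827 CPM), ratios to naive of 4.39 (interval 2.79 to 7.20) and 6.05 (3.90 to 9.78). Tcrg-V4 had 36, 77 and 4 counts and Tcrg-V1 had 36, 68 and 16 in the same libraries. Tcrg-V3 had 15 counts in effector memory, 1 in central memory and 0 in naive.

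Immunoglobulin variable segments, which mark B cells, had 9 counts over 216 rows in effector memory, 68 in central memory and 283 in naive (0.281, 1.90 and 10.2 CPM). Of the 6 B cell markers in the table, 4 were at 0 in effector memory, 3 in central memory and 0 in naive.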
